A study of Mus musculus with 44 samples.

Results

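The genes described here are the potassium channel genes of the mouse, taken as every gene whose symbol begins with Kcn, followed by letters and a digit, with the exception of Kcnj10. Of 45882 genes in the tables of glia and whole ganglia, 97 met that rule. A shorter table for neurons listed 12170 genes, of which 50 met it. Members are reported where they reached 1 FPKM (a level that divides the fragments of a gene by its length and by the size of the library) in at least 3 libraries of a table, which left 46 in the naive table, 44 in the table of glia after surgery and all 50 in the neuron table. By subfamily, in that order of tables, the reported members comprised 22, 16 and 23 voltage-gated channels, 3, 4 and 3 inward rectifiers and 5, 5 and 8 two-pore channels. Calcium-activated channels, counted here with the sodium-activated Kcnt genes and with Kcnu1, numbered 6 in each table and auxiliary subunits 9, 11 and 9. The RNAs Kcnq1ot1 and Kcnab3os also match the rule. They are antisense RNAs, and without knowing whether strand was used in counting their reads cannot be told apart from those of the genes they overlap.

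The study sequenced RNA from 44 bulk libraries of C57BL/6 mice in 12 groups. Satellite glial cells (SGCs), which wrap the cell bodies of sensory neurons, came from L3 and L4 dorsal root ganglia (DRGs) dissociated with enzymes, fixed in paraformaldehyde, stained and sorted by flow cytometry. Naive mice aged 9 weeks gave 4 SGC libraries and 4 libraries of whole DRGs that were dissociated and fixed but not sorted. Mice aged 9 to 11 weeks had the sciatic nerve fully ligated or a sham operation, and gave 4 SGC libraries per surgery at 3 days and 4 at 14 days. Neurons came from L3 to L5 ganglia 8 days after partial ligation or sham surgery, at the same ages, and were isolated with magnetic beads, with no fixation named. They comprised 3 libraries for each sex and surgery, plus 4 from the ligated side and 4 from the opposite side of ligated mice. No genotype other than the strain is named in the labels, and the antibodies of the sort are not named either. No label says whether a library is 1 animal or a pool, or which libraries share an animal, so p-values measure only the spread between these libraries.

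Potassium channels let potassium leave or enter a cell and so set its resting potential, the shape of its action potentials and how it fires. In sensory neurons, voltage-gated channels and their cytoplasmic auxiliary subunits limit repetitive firing, and two-pore channels carry leak current. Glia around neurons take up potassium released by firing, largely through inward rectifiers.

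The marker genes of each preparation were read first. All 10 satellite glia markers were at 1 FPKM or more in every SGC library, and their summed level was 19791 to 27435 FPKM in naive SGCs against 7267 to 11079 in whole DRGs. The summed level of 11 neuron markers was 94.3 to 276 FPKM in naive SGCs and 2548 to 4560 in whole DRGs, so the sorted glia were low in neuron RNA but not free of it. Naive SGC libraries also held less macrophage RNA (10 markers summing to 3.65 to 8.52 against 92.4 to 107 FPKM, with C1qa listed at 0) and less mural RNA (7 markers, 11.7 to 16.5 against 140 to 195, with Tagln listed at 0). Their 9 endothelial markers summed higher, to 103 to 225 against 45.3 to 95.1 FPKM. Isolated neurons held 6893 to 10289 FPKM of the neuron markers. Their table listed 5 of the 10 satellite glia markers, which summed to 43.2 to 98.7 FPKM, and 5 of the 8 markers of myelinating Schwann cells, at 726 to 2848 FPKM. The series text calls these cells nociceptors, and the 9 nociceptor markers summed to 3810 to 7487 FPKM in them.

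In naive animals, 6 potassium channel genes were higher in sorted SGCs than in whole DRGs, and the sequences upstream of 3 of them are shown because these genes moved together in the only comparison in which any member passed the test. Each window holds the 250 bases before the first start that RefSeq lists on GRCm38.p6, 5′ to 3′ on the strand of the gene, in lower case with every CG dinucleotide in capitals. Kcnj16 had the largest difference (window at chr11:110967783-110968032, plus strand), Kcnn4 the highest SGC level of the 6 (chr7:24370013-24370262, plus strand) and Kcnmb4 the most CG dinucleotides (chr10:116473524-116473773, minus strand). GENCODE and RefSeq differ on the start of Kcnmb4. By GENCODE the gene spans 116417861 to 116473878, so its window lies within the gene and is upstream only of the RefSeq start. The Kcnk5 window overlaps its GENCODE gene in part.
Kcnj16: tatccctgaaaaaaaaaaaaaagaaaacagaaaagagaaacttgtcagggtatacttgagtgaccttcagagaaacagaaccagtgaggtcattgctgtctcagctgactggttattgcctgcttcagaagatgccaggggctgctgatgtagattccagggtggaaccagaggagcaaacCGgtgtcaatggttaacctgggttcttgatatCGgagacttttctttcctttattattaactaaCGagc
Kcnn4: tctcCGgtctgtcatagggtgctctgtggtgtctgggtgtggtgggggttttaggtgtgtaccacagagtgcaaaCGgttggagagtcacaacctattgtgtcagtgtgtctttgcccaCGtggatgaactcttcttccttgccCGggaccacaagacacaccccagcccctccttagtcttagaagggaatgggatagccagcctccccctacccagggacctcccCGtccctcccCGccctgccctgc
Kcnmb4: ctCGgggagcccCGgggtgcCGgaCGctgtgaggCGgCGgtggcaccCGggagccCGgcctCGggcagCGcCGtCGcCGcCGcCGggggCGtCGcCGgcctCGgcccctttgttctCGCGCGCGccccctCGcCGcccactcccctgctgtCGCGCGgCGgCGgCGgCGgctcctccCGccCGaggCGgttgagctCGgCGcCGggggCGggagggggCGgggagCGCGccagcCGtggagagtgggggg

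The windows had no base composition in common. CG dinucleotides numbered 3 for Kcnj16 (42.8% G or C), 6 for Kcnn4 (58.8%) and 43 for Kcnmb4 (83.6%). Those of the other 3 genes numbered 5 for Kcnk2 (42.4%), 19 for Kcnk5 (62.8%) and 20 for Kcnh8 (68.4%). Over all 32851 windows the medians were 6 CG dinucleotides and 52.4% G or C, and over the 22 members that were lower in SGCs and have a window they were 11 and 61.6%. The letters ACAAAG or AACAAT, forms of the motif bound by Sox factors, were searched on both strands. They occurred in 24% of all windows, which include every listed start. The first window held them in 1 of the 6 higher genes (Kcnmb4) and in 3 of the 22 lower ones. Beyond the first start, ACAAAG occurred in 2 of the 4 Kcnk2 windows. Later starts of the lower genes Kcnab2, Kcnab1, Kcnip3 and Kcnc2 also held 1 of the 2 sets of letters. A match describes only the letters in the window. Kcnj16 and Kcnk2 each have 4 listed starts, and the composition given is that of the first.

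Naive SGCs and naive DRGs were compared to ask which genes were higher or lower in the sorted cells. Most potassium channel genes were lower in the sorted glia: 32 of the 42 tested members were lower and 6 were higher by limma on log2(FPKM + 1), at a Benjamini-Hochberg adjusted p under 0.05 over all genes. Of all 12907 genes tested, 44.9% passed, 16.9% higher and 27.9% lower. The median difference of the members was -2.01 on the log2(FPKM + 1) scale against -0.12 over all genes. The 4 SGC libraries and the 4 DRG libraries did not overlap for 38 members, against 43.8% of all genes. Some members reached 1 FPKM in DRG libraries only, among them Kcns3, Kcnc4, Kcnip1, Kcnmb1, Kcnq3 and Kcnu1. These passed the filter through the DRGs alone, so being lower in SGCs without overlap was fixed in advance for them. The counts and the median above include them and do not bear on their direction. A whole ganglion includes its SGCs, and in bulk RNA fewer cells of a type and less RNA per cell cannot be told apart. The share of the DRG level that remained in SGCs was 4.24% for the summed neuron markers. Their part in the lower values of single members was not tested. The summed endothelial markers stood at 233% of the DRG level in SGCs and the summed satellite glia markers at 282%. The part of either in the values of the 6 higher members was not tested.

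**Figure D1:**
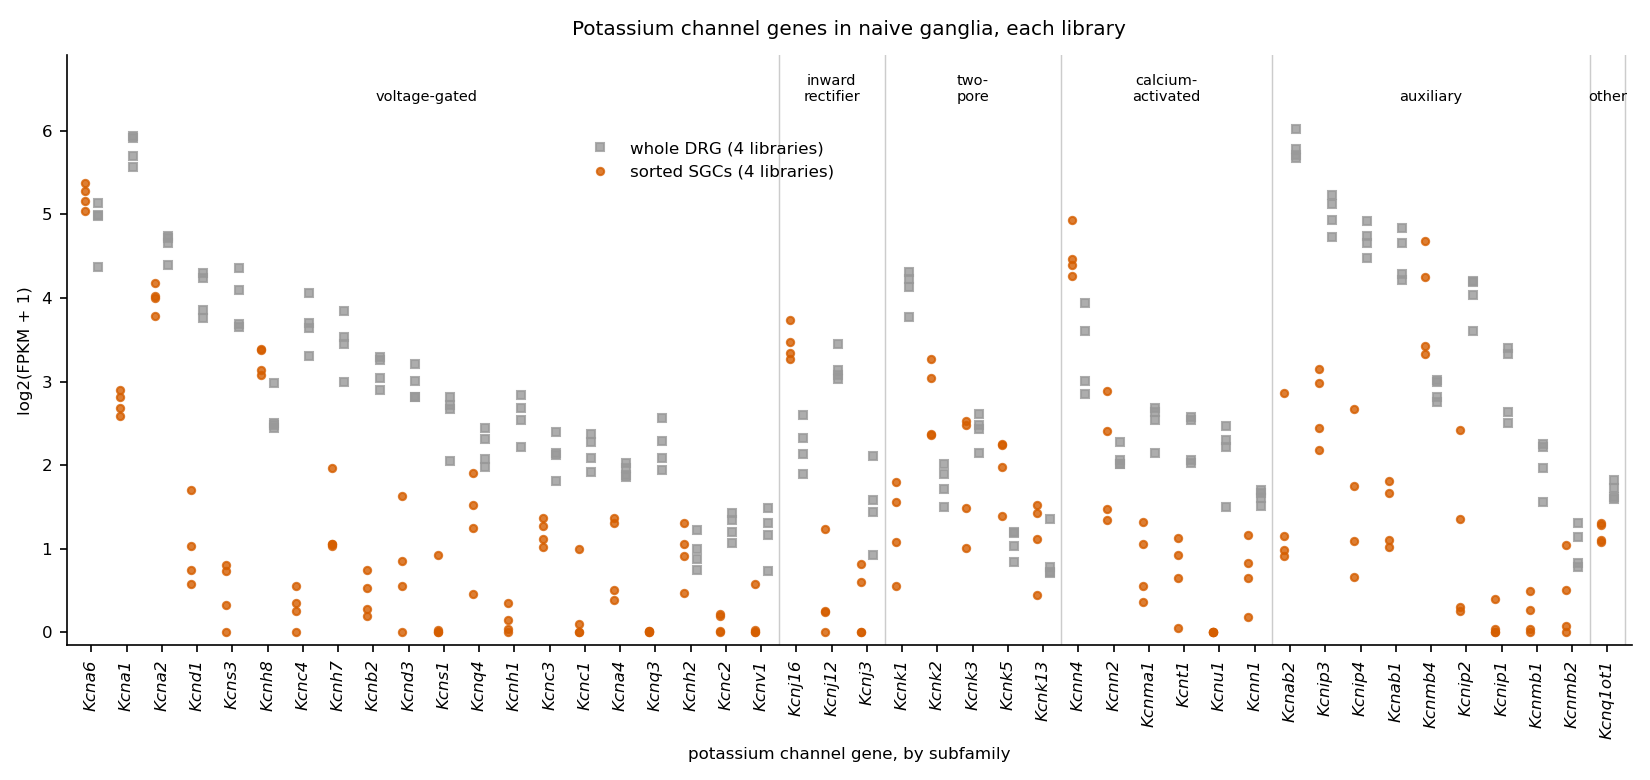
Level of the reported potassium channel genes in every naive library, as log2(FPKM + 1), ordered by subfamily and within it by mean FPKM. Orange circles are the 4 sorted SGC libraries and grey squares the 4 whole DRG libraries. The circles lie above the squares for Kcnh8, Kcnj16, Kcnk2, Kcnk5, Kcnn4 and Kcnmb4, and below them for most of the others.

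The inward rectifiers divided. Kcnj16 (GRCm38 chromosome 11, 110968033 to 111027968) encodes a subunit that assembles with the glial channel protein of Kcnj10. Its SGC libraries held 12.3, 9.17, 8.64 and 10.1 FPKM, and its DRG libraries 2.72, 3.40, 4.01 and 5.08. Every SGC library was above every DRG library, and the difference was 1.22 (SE 0.19, limma adjusted p = 0.000974). Kcnj12, which carries strong inward rectification, went the other way, at 0, 1.36, 0.185 and 0.197 FPKM in SGCs and 9.96, 7.14, 7.79 and 7.44 in DRGs. Its difference was -2.74 (SE 0.27, limma adjusted p = 0.000104), and the 1 SGC library at 1.36 FPKM was also the highest of its group for Kcnab2. Kcnj3, a subunit gated by G proteins, was at 0, 0.768, 0 and 0.516 FPKM in SGCs and did not reach the level set for testing.

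Among calcium-activated channels, counted here with the sodium-activated Kcnt1 and with Kcnu1, 1 of 6 was higher and 4 were lower. Kcnn4, the intermediate-conductance channel (chromosome 7, 24370263 to 24386690), stood at 29.6, 21.2, 18.2 and 20.0 FPKM in SGCs and at 11.1, 6.19, 7.06 and 14.4 in DRGs. The groups did not overlap, with a difference of 1.17 (SE 0.27, limma adjusted p = 0.00718). Kcnn4 was the member with the second highest level in SGCs, after Kcna6. Kcnn2, a small-conductance channel of the same family, held 6.42, 4.30, 1.78 and 1.54 FPKM in SGCs and 3.84, 3.18, 3.02 and 3.03 in DRGs, groups that overlap (-0.06, SE 0.34). Kcnn1, another small-conductance channel, fell by 0.92 on the log2 scale (SE 0.21, limma adjusted p = 0.0077), but this call was lost after quantile normalization (-0.42, adjusted p = 0.112). Kcnu1, a channel known from sperm, was listed at 0 in all 4 SGC libraries and at 3.94, 4.53, 3.67 and 1.83 FPKM in DRGs. It passed the filter through the DRGs alone. Kcnma1, the large-conductance channel, was lower by limma (-1.68, SE 0.24, adjusted p = 0.000657), and so was the sodium-activated channel Kcnt1 (-1.61, SE 0.26, adjusted p = 0.00121).

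Kcnma1 and its auxiliary subunit Kcnmb4 moved in opposite directions. Kcnmb4 (chromosome 10, 116417861 to 116473878) held 24.6, 9.05, 9.69 and 17.9 FPKM in SGCs and 6.01, 5.76, 6.98 and 7.09 in DRGs. All SGC libraries were above all DRG libraries, but the SGC libraries spread widely, and 2 of them lay far above the others. The difference was 1.02 (SE 0.30, limma adjusted p = 0.022). It did not pass without DRG replicate 1 (adjusted p = 0.0584), without DRG replicate 2 (0.0603) or without SGC replicate 4 (0.0534). Kcnma1 itself was at 1.08, 1.49, 0.290 and 0.467 FPKM in SGCs and 4.83, 5.42, 5.19 and 3.43 in DRGs, without overlap. Kcnmb1, the subunit of the same channel known from smooth muscle, was lower in SGCs (-1.80, SE 0.20). It reached 1 FPKM in DRG libraries only, so the filter left it no other direction. In isolated neurons, whose table was scaled separately, Kcnmb1 had a mean of 54.4 FPKM. The mural and the neuron markers were lower in SGCs too, and their part in the Kcnmb1 values was not tested.

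The other 6 auxiliary genes tested were all lower in SGCs, though Kcnip1 passed the filter through the DRGs alone. Kcnab2, a cytoplasmic subunit of the Kcna channels, had the largest difference of any member, -4.32 (SE 0.41, limma adjusted p = 7.91e-05). Its SGC libraries held 0.886, 6.26, 1.22 and 0.982 FPKM and its DRG libraries 64.0, 53.8, 51.5 and 49.8. The SGC mean was 4.26% of the DRG mean, close to the 4.24% of the summed neuron markers, and it rests in large part on the library at 6.26. Kcnab1, of the same family, was at 1.16, 2.17, 1.03 and 2.50 FPKM in SGCs and 18.5, 27.5, 24.1 and 17.6 in DRGs (-3.10, SE 0.23, limma adjusted p = 3.02e-05). The Kcnip genes encode calcium-binding subunits of the Kcnd channels. Kcnip4, Kcnip2, Kcnip1 and Kcnip3 were lower by 3.15, 2.92, 2.85 and 2.31 in the printed order, and Kcnip3 kept the most, at 4.45, 7.85, 6.89 and 3.55 FPKM in SGCs.

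Two-pore channels were the only subfamily with a positive median (0.23 over 5 genes), with 2 higher and 1 lower. Kcnk2 (chromosome 1, 189207930 to 189402273) encodes a leak channel sensitive to stretch and temperature. It stood at 8.63, 4.17, 4.15 and 7.23 FPKM in SGCs and at 3.04, 1.83, 2.71 and 2.28 in DRGs (0.98, SE 0.25, limma adjusted p = 0.0111). The groups did not overlap, and neither did those of Kcnk5. Kcnk5 (chromosome 14, 20140057 to 20181809), an acid-sensitive leak channel, was lower in level, at 2.93, 3.72, 1.63 and 3.78 FPKM in SGCs and 1.28, 0.787, 1.04 and 1.29 in DRGs (0.90, SE 0.22, limma adjusted p = 0.00978). Kcnk1 was lower in SGCs, at 1.12, 0.464, 2.47 and 1.95 FPKM against 18.8, 17.7, 16.5 and 12.7 (-2.86, SE 0.28, limma adjusted p = 8.81e-05). Kcnk3, another acid-sensitive leak channel, overlapped between the groups, at 1.02, 4.75, 1.81 and 4.59 FPKM in SGCs and 4.37, 4.56, 3.41 and 5.11 in DRGs. Kcnk13 also did not pass (0.23, SE 0.27), although it did after quantile normalization (0.83, adjusted p = 0.0312).

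Of the 20 voltage-gated channels tested, 18 were lower and 1 was higher in SGCs, with a median of -2.21. The exception was Kcnh8, of the ether-a-go-go-like family (chromosome 17, 52602709 to 52979194), at 7.77, 9.42, 7.46 and 9.47 FPKM in SGCs and 4.59, 4.43, 4.65 and 6.92 in DRGs (0.64, SE 0.17, limma adjusted p = 0.014). Its relative Kcnh7 was at 2.90, 1.08, 1.05 and 1.07 FPKM in SGCs and 10.6, 13.4, 9.95 and 6.95 in DRGs, lower in every SGC library. Several of the 18 lower genes reached 1 FPKM in DRG libraries only, among them Kcnb2, Kcnc1, Kcnc2, Kcnc4, Kcnq3, Kcns1 and Kcns3. For these the filter fixed the direction in advance, and the count and median of the voltage-gated channels include them.

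Within the Kcna family, whose channels sit beside axon nodes and limit excitability, the members differed widely. Kcna1 was at 4.99, 6.03, 5.42 and 6.45 FPKM in SGCs and 59.2, 60.0, 50.7 and 46.5 in DRGs (-3.03, SE 0.14, limma adjusted p = 2.27e-06). Kcna2 was much nearer, at 14.98, 15.2, 17.1 and 12.8 FPKM in SGCs and 25.2, 25.7, 24.2 and 20.0 in DRGs (-0.63, SE 0.14, limma adjusted p = 0.0059). For both, every SGC library was below every DRG library. Kcna6 was the potassium channel gene with the highest level in naive SGCs, at 37.6, 34.8, 31.8 and 40.6 FPKM, and its DRG libraries, at 30.6, 19.7, 30.7 and 34.2, overlapped with them. Its difference of 0.34 (SE 0.18, limma adjusted p = 0.158) did not pass, but did after quantile normalization (0.56, adjusted p = 0.0327). As a share of the DRG mean, the SGC mean was thus 10.6% for Kcna1, 63.1% for Kcna2 and 126% for Kcna6.

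The remaining voltage-gated channels were low in SGCs. The largest differences were those of Kcns3, a silent subunit that modifies other voltage-gated channels (-3.48, SE 0.24), and Kcnc4, a fast-inactivating channel (-3.38, SE 0.20). Both reached 1 FPKM in DRGs only, so the filter left them no other direction. Kcns3 was at 0, 0.754, 0.256 and 0.667 FPKM in SGCs and 16.0, 19.5, 11.9 and 11.6 in DRGs. Kcnd1, which carries transient current, was at 0.674, 2.25, 1.05 and 0.495 FPKM in SGCs and 17.9, 18.7, 13.5 and 12.6 in DRGs (-3.03, SE 0.26). Kcnq3, a channel of the M current, which damps firing, had a mean of 0.165% of the DRG mean, below the share of the summed neuron markers, and was listed at 0 in 2 of the 4 SGC libraries.

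**Figure D2:**
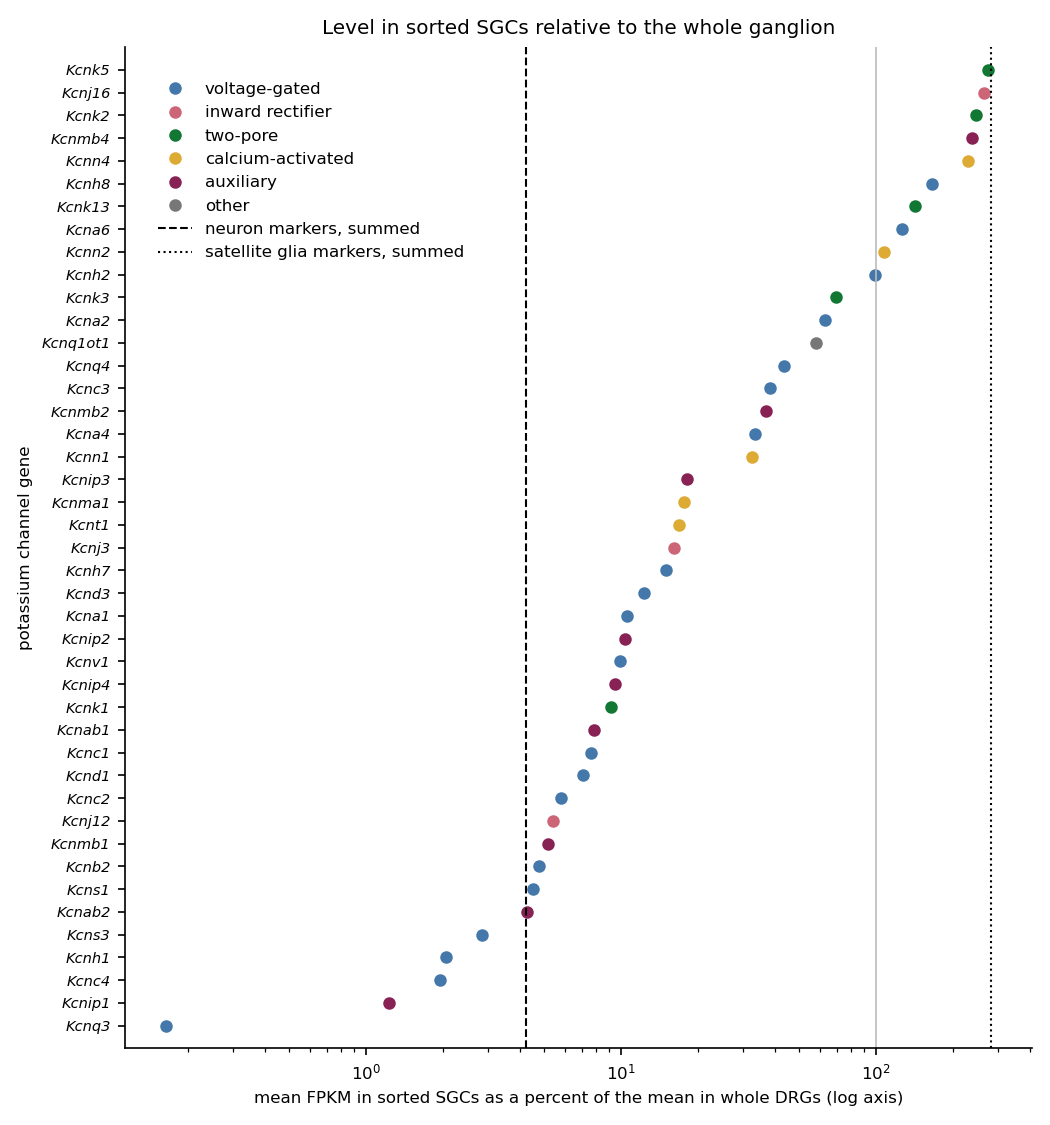
Mean FPKM in the 4 naive SGC libraries as a percent of the mean in the 4 DRG libraries, on a log axis, for the reported potassium channel genes, coloured by subfamily; Kcnu1, listed at 0 in SGCs, is left off. The dashed line marks the summed neuron markers (4.24%), the dotted line the summed satellite glia markers (282%) and the grey line equal levels. Kcnk5, Kcnj16, Kcnk2, Kcnmb4 and Kcnn4 lie between 230% and 274%, and Kcnq3 lies lowest at 0.165%.

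The make-up of channel RNA differed with the preparation. Auxiliary subunits held 16.8% to 20.3% of the summed FPKM of all members in SGCs and 34.0% to 35.5% in DRGs. Calcium-activated channels held 14.2% to 21.1% in SGCs and 5.06% to 7.10% in DRGs, inward rectifiers 6.70% to 7.35% and 3.06% to 3.47%, and two-pore channels 8.81% to 11.1% and 5.78% to 5.97%. The share of voltage-gated channels overlapped, at 42.0% to 51.1% and 48.9% to 50.6%.

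Other genes that act with potassium channels were read from a list of 30, of which 20 could be tested. In SGCs, 6 of these were higher and 13 lower by limma, against 16.9% and 27.9% of all genes. The higher genes included the sodium pump subunit Atp1b2 (1.40), the chloride cotransporter Slc12a2 (1.43), Rest, a repressor of neuronal genes (0.75), and Lgi1, which is tied to Kcna channels at nerve terminals (0.53). The lower genes included Cntnap2 and Cntn2, which cluster Kcna channels beside axon nodes (-3.48 and -2.81), and Dpp6, a partner of Kcnd channels (-3.42).

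Ligated and sham SGCs were compared at 3 and 14 days to ask how the glia change after nerve injury. At 3 days none of the 40 tested potassium channel genes passed the adjusted threshold in limma, where 0.0646% of all 13924 genes did. At an unadjusted p under 0.05, 6 members differed, 1 higher (Kcnmb4) and 5 lower (Kcna2, Kcnh7, Kcnj16 and Kcna1 among them), against 9.11% of all genes (4.24% higher and 4.87% lower). In the authors' deposited table, which has adjusted p-values for 63 members, Kcnmb4 and Kcnh7 passed 0.05, against 1.02% of all genes there. The members' median difference was -0.35 against -0.01 over all genes. Of the 40, 29 were negative and 11 positive, where 48.6% of all genes were positive. The negative members included 12 of the 15 voltage-gated channels. The members' median was -0.096 without sham replicate 1 and -0.20 without ligated replicate 1. Sham replicate 1 was the highest of its group for several members, among them Kcnd1 (7.66 FPKM), Kcnd3 (5.14), Kcnip4 (11.5) and Kcnk1 (7.15). Of the 6 nociceptor markers tested, 5 were lower after ligation, with a median of -0.91. Of the 11 neuron markers tested, 5 were higher, with a median of -0.11. None of either list was called, and their part in the members' values was not tested. The groups did not overlap for 3 members, Kcna2, Kcnh7 and Kcnj16, all lower after ligation, against 3.78% of all genes.

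Kcnmb4, the auxiliary subunit that was higher in naive SGCs, had the largest positive difference at 3 days. Its sham libraries held 14.98, 9.37, 10.6 and 5.11 FPKM and its ligated libraries 11.5, 21.6, 22.9 and 18.9. Ligated replicate 1 fell within the sham range and the other 3 were above it, for a difference of 0.88 (SE 0.31, limma adjusted p = 0.396). The authors' deposited table gave Kcnmb4 a log2 fold change of 0.80 with an adjusted p of 0.0181. The 9 endothelial markers, which were also higher in naive SGCs than in DRGs, summed to 184 to 364 FPKM in sham and 270 to 493 in ligated libraries. Their part in the Kcnmb4 values was not tested.

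Kcnj16, the inward rectifier, was at 8.73, 7.60, 7.004 and 6.55 FPKM in sham and 2.31, 5.79, 4.51 and 6.09 in ligated libraries (-0.63, SE 0.24, limma adjusted p = 0.431). All ligated libraries were below all sham libraries, with ligated replicate 1 the lowest. Kcnn4 was lowest in that same library, at 4.81 FPKM against 17.9, 16.6 and 17.4 in the others, while its sham libraries spread from 8.28 to 26.1 (-0.49, SE 0.38). Without ligated replicate 1 the difference was -0.39 for Kcnj16 and -0.074 for Kcnn4, and without sham replicate 2 it was -0.84 for Kcnn4.

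Among voltage-gated channels, Kcna2 was at 19.2, 15.9, 12.8 and 15.1 FPKM in sham and 11.1, 9.66, 8.33 and 12.5 in ligated libraries (-0.56, SE 0.15). It had the lowest adjusted p of any member, 0.283 by limma, and its groups did not overlap. Kcnh7 was at 3.87, 1.41, 2.16 and 1.29 FPKM in sham and 0.998, 0.687, 0.577 and 0.900 in ligated libraries (-0.77, SE 0.24, limma adjusted p = 0.331). The authors' deposited table gave Kcnh7 a log2 fold change of -1.46 with an adjusted p of 0.0342. Neuron markers summed to 170 to 792 FPKM (median 388) in sham and 373 to 666 (median 591) in ligated libraries. Nociceptor markers summed to 41.7 to 508 FPKM (median 187) in sham and 47.1 to 155 (median 71.1) in ligated libraries. Both pairs of ranges overlap. By its median, the nociceptor sum was lower in ligated libraries and the neuron sum was higher. Kcna6 was the highest member in every library of both surgery times except sham replicate 1 at 3 days, where Kcnn4 was higher. At 3 days it stood at 18.1, 33.8, 40.9 and 27.7 FPKM in sham and 33.8, 35.1, 33.6 and 28.5 in ligated libraries (0.17, SE 0.23). The injury markers, a check of the surgery, summed to 140 to 409 FPKM in sham and 1441 to 3348 in ligated libraries.

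**Figure D3:**
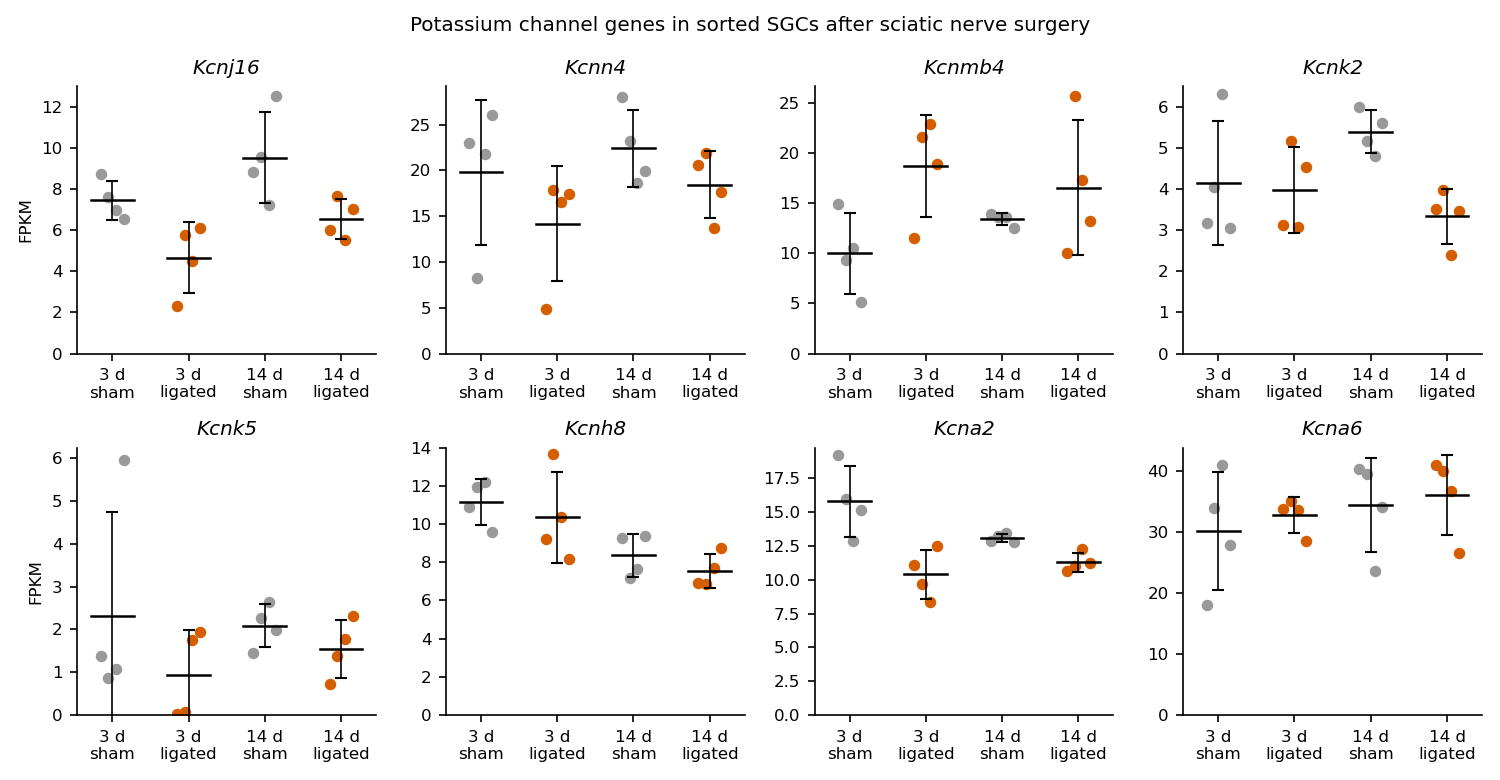
FPKM of 8 potassium channel genes in sorted SGCs, 1 point per library, in sham (grey) and ligated (orange) groups at 3 and 14 days; black lines are the mean and SD of 4 libraries, cut at 0 for Kcnk5. Kcna2 and Kcnj16 do not overlap between sham and ligated at 3 days, and Kcna2 and Kcnk2 do not at 14 days.

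At 14 days again none of 40 members passed in limma (0.00718% of all genes did), and 1 had an unadjusted p under 0.05, against 5.16% of all genes. In the authors' deposited table none of 69 members passed, against 1.06% of all genes. The members' median difference was -0.08 against -0.02 over all genes. The groups did not overlap for 2 members, Kcna2 and Kcnk2, both lower, against 4.07% of all genes. Kcnk2, the stretch-sensitive leak channel, was at 6.00, 5.18, 4.81 and 5.62 FPKM in sham and 3.51, 3.98, 2.39 and 3.47 in ligated libraries (-0.57, SE 0.23, limma adjusted p = 0.884). The authors' deposited table gave Kcnk2 a log2 fold change of -0.71 with an adjusted p of 0.169. At 3 days its sham and ligated libraries overlapped. The endothelial markers summed to 164 to 313 FPKM in sham and 232 to 385 in ligated libraries at 14 days, and their part in the Kcnk2 values was not tested.

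Kcna2 was at 12.8, 13.2, 13.5 and 12.8 FPKM in sham and 10.6, 11.0, 12.2 and 11.2 in ligated libraries at 14 days (-0.20, SE 0.15). Both groups were narrow and did not overlap. Kcnj16 was at 8.83, 9.59, 7.23 and 12.5 FPKM in sham and 6.01, 7.67, 5.51 and 7.05 in ligated libraries (-0.47, SE 0.24), and 1 ligated library exceeded the lowest sham library. Kcnmb4 was at 13.9, 13.7, 13.6 and 12.6 FPKM in sham and 10.02, 25.7, 17.3 and 13.2 in ligated libraries (0.20, SE 0.31), with 1 high ligated library. The injury markers summed to 217 to 324 FPKM in sham and 881 to 1982 in ligated libraries at 14 days. The test of the ligation effect at 14 days minus that at 3 days called no member, adjusted or at an unadjusted p under 0.05, where 0.00718% and 4.19% of all genes passed in limma.

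Kcnj13, an inward rectifier of epithelia, had an irregular pattern. It was listed at 0 in all 8 sham libraries, at 19.3, 0, 0 and 0 FPKM in the ligated libraries at 3 days and at 7.10, 0, 8.61 and 0 at 14 days. It reached the level for reporting through 3 ligated libraries but not that for testing. The authors' deposited table gave Kcnj13 adjusted p-values of 0.555 at 3 days and 0.344 at 14 days.

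**Figure D4:**
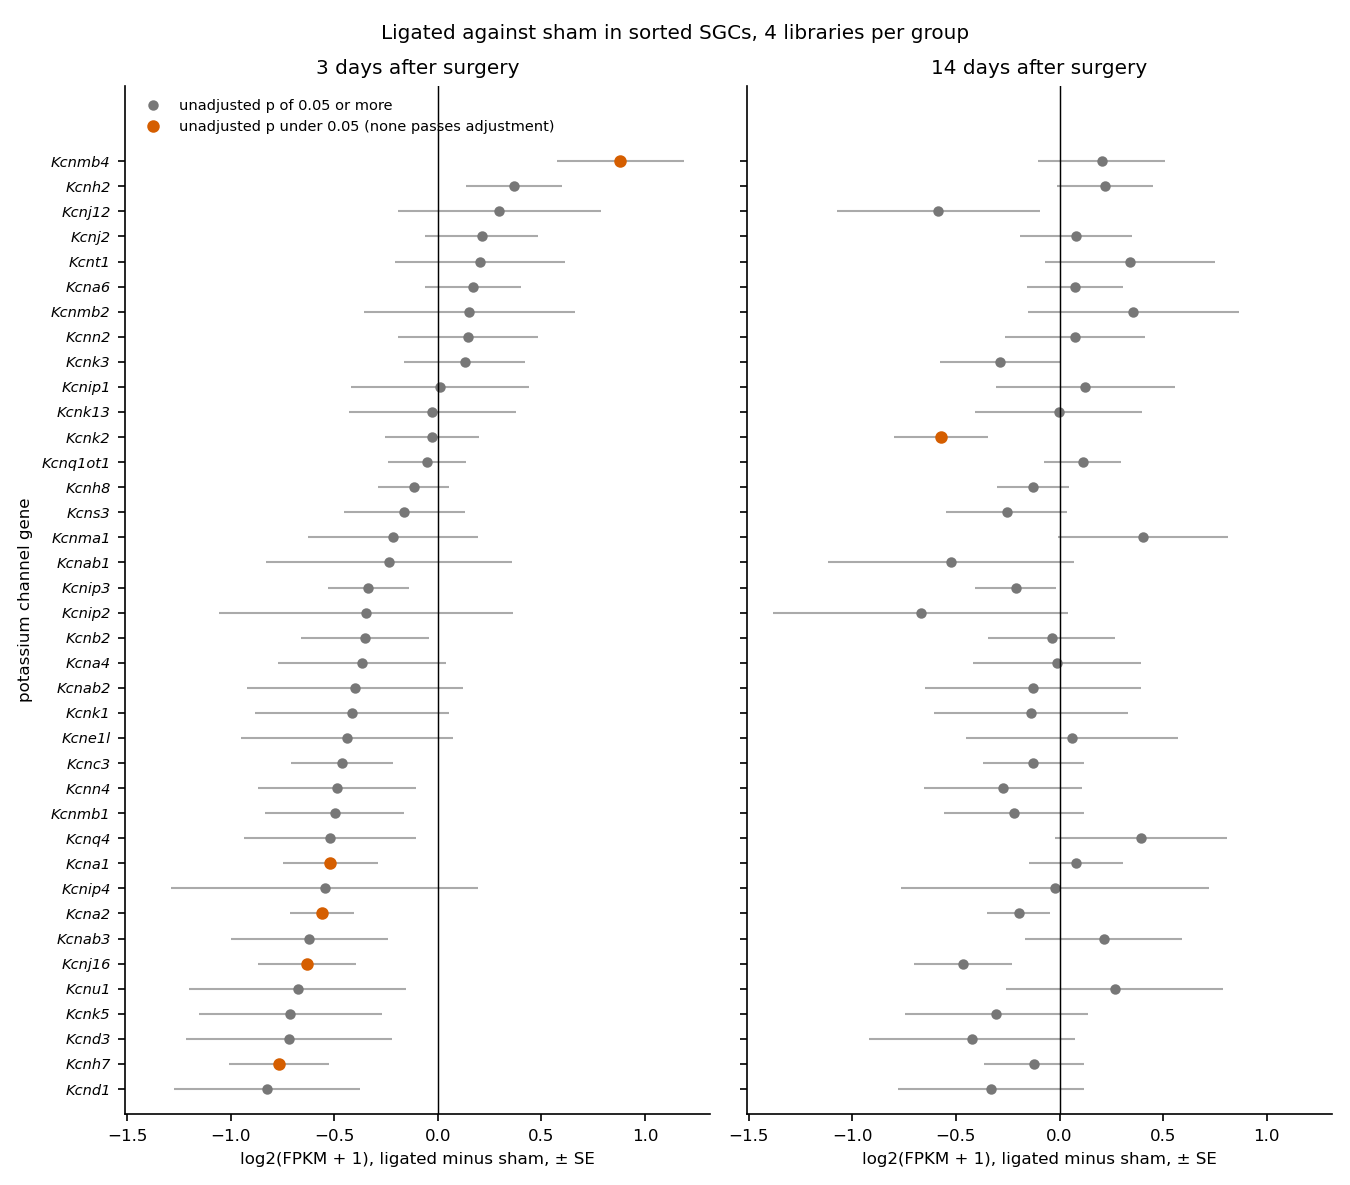
Difference in log2(FPKM + 1) between ligated and sham SGCs, with its SE from limma, for the tested potassium channel genes at 3 days (left) and 14 days (right), in the order of the 3-day values. Orange points have an unadjusted p under 0.05, and none passes after adjustment.

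Neurons of ligated and sham mice were compared at 8 days. Auxiliary subunits made up most of their potassium channel RNA, with 56.5% to 78.3% of the members' summed FPKM. FPKM tables were scaled separately, so levels here are not set against those of glia. Over the 20 libraries the highest means were those of Kcnip2 (328 FPKM), Kcnip4 (226), Kcnab2 (158), Kcnab1 (111) and the channel Kcnd1 (100.3), to which Kcnip subunits bind. Kcnmb1 followed at 54.4, Kcnip3 at 40.4, the sodium-activated channel Kcnt1 at 40.3, Kcnh6 at 33.9 and Kcna6 at 32.0 FPKM. Of the 6 genes higher in naive SGCs than in DRGs, Kcnj16 and Kcnk5 are not listed in the neuron table. That table lists 12170 genes, of which 12145 reached 1 FPKM in at least 3 libraries, so a gene left out has no measured value. Kcnn4 reached at most 3.80 FPKM in any neuron library, Kcnh8 1.81 and Kcnk2 4.18. Kcnmb4 was at 0.634 to 8.75 FPKM except in 1 opposite-side library, at 39.0.

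No potassium channel gene passed in any neuron comparison. Over both sexes 0 of 50 members passed in limma, where 0.28% of all genes did, and 1 had an unadjusted p under 0.05, against 3.58%. In the authors' deposited table none of 67 members passed, against 1.7% of all genes, and Kcnt1 came nearest (log2 fold change -0.56, adjusted p = 0.130). The members' median was -0.16 against -0.04 over all genes. Of the 50, 40 were negative and 10 positive, where 43.1% of all genes were positive. The negative members included 20 of the 23 voltage-gated channels. No member's 6 ligated libraries lay apart from its 6 sham libraries, against 0.79% of all genes. The injury markers summed to 299 to 708 FPKM in the sham libraries of both sexes and 1340 to 3531 in the ligated ones.

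The 1 member with an unadjusted p under 0.05 was Kcnmb1, an auxiliary subunit of the large-conductance channel. Male sham libraries held 66.5, 63.9 and 91.2 FPKM and male ligated libraries 62.8, 42.9 and 38.7. Female sham libraries held 74.7, 62.4 and 78.5 FPKM and female ligated libraries 38.2, 68.1 and 45.4. The male groups did not overlap and the female groups did, through 1 ligated library, and the difference over both sexes was -0.58 (SE 0.23, limma adjusted p = 0.999). Kcnt1, which limits firing in nociceptors, was at 84.3, 22.6 and 30.0 FPKM in male sham and 17.4, 30.6 and 25.3 in male ligated libraries. In females it was at 32.3, 42.2 and 36.0 in sham and 23.5, 31.7 and 24.9 in ligated libraries, groups that did not overlap. The difference over both sexes was -0.57 (SE 0.31, limma adjusted p = 0.999), and -0.29 without the male sham library at 84.3 FPKM.

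Within males none of 50 members passed in limma at an adjusted or unadjusted p under 0.05 (0.00823% and 2.65% of all genes did). The groups did not overlap for 3 members, Kcnab1 and Kcnk2 higher and Kcnmb1 lower, against 5.68% of all genes. Kcnab1 was at 97.0, 138 and 90.8 FPKM in male sham and 164, 142 and 139 in male ligated libraries (0.46, SE 0.25). In females Kcnab1 was at 145, 85.0 and 100.1 FPKM in sham and 114, 104 and 82.4 in ligated libraries, which overlap. Within females none of 50 passed (0.148% of all genes did), and the antisense RNA Kcnab3os alone had an unadjusted p under 0.05, against 2.52%. Kcnk3, higher, and Kcnb2 and Kcnt1, lower, did not overlap between female groups, against 7.9% of all genes. The test of the male minus the female effect called no member, adjusted or at an unadjusted p under 0.05, where 0% and 1.07% of all genes passed in limma.

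**Figure D5:**
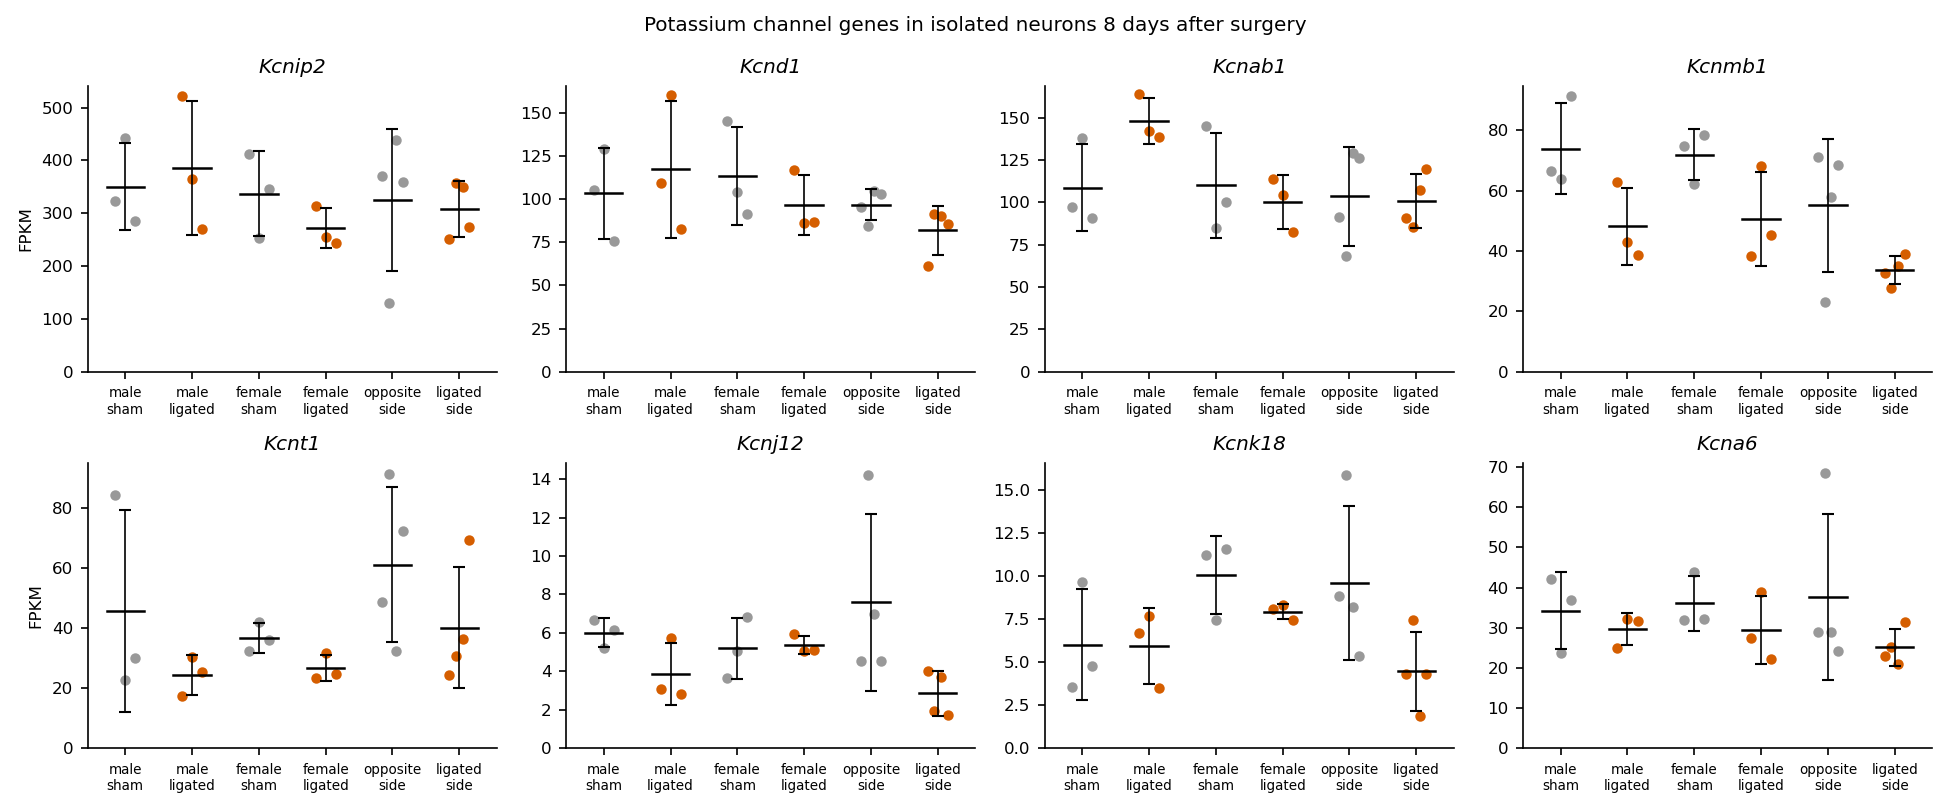
FPKM of 8 potassium channel genes in isolated neurons 8 days after surgery, 1 point per library, with the mean and SD (3 libraries per group for sex and surgery, 4 per side); orange groups are ligated and grey groups are sham or opposite side. Kcnmb1 is lower in every male ligated than in every male sham library, and 1 opposite-side library is the highest of its group for Kcnt1, Kcnj12, Kcnk18 and Kcna6.

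The 2 sides of ligated mice were also compared. The neuron columns carry no replicate numbers, and 1 opposite-side library stood apart from the other 3 for several members. It held 68.5 FPKM of Kcna6 (24.2 to 29.0 in the others), 39.0 of Kcnmb4 (2.25 to 4.27) and 13.6 of Kcna2 (4.18 to 4.58), and only 130 of Kcnip2. Side results are therefore given with and without it. None of 50 members passed in limma in either case, where 0.667% of all genes did with all libraries. At an unadjusted p under 0.05 there were 5 members, Kcnj12, Kcnk18, Kcnn1 and Kcnma1 lower and Kcnu1 higher, against 9.85% of all genes (4.14% lower and 5.71% higher).

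Kcnj12, the strong inward rectifier, was the only member whose sides did not overlap, against 4.46% of all genes. It was at 4.02, 1.96, 3.72 and 1.73 FPKM on the ligated side and 4.56, 14.2, 7.005 and 4.54 on the opposite side. The difference was -1.07 (SE 0.34, limma adjusted p = 0.222), and -0.75 (adjusted p = 0.509) without the library that stood apart. Kcnk18, a leak channel of nociceptors, was at 4.30, 7.44, 1.86 and 4.29 FPKM on the ligated and 8.85, 15.9, 8.19 and 5.34 on the opposite side (-0.96, SE 0.37, and -0.70 without that library). Kcnn1 was at 3.97, 7.64, 9.80 and 4.30 FPKM on the ligated and 8.41, 28.4, 6.69 and 11.1 on the opposite side. Its difference of -0.85 (SE 0.38) was -0.44 without that library. Kcnu1 was at 8.21, 12.6, 9.68 and 20.8 FPKM on the ligated and 7.94, 1.18, 10.4 and 1.84 on the opposite side (1.38, SE 0.46, and 0.98 without that library). Kcnma1 was at 5.80, 5.72, 8.23 and 2.39 FPKM on the ligated and 7.30, 10.6, 9.84 and 10.03 on the opposite side (-0.75, SE 0.35, and -0.70 without that library, or -0.47 without the ligated-side library at 2.39). The Kcna6 difference of -0.46 became -0.13 without it, and that of Kcna2 turned from -0.17 to 0.19.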

How the data were processed

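Libraries were grouped from the sample labels. The submitters' processing notes name mm10 as the build and STAR, SAMtools, Cufflinks and DESeq2 as tools, without versions or the role of each. The authors deposited 3 FPKM tables and 3 tables of their own comparisons with baseMean (a normalized signal), log2 fold changes and p-values; a further comparison table was not used, because no source used here says which groups it compares. Whether strand was used in counting is not given in the sources used here, and FPKM keeps no depth, so the depth per library is unknown; 10225 to 13173 genes reached 1 FPKM in a library. The sign of the deposited log2 fold changes was turned to ligated over sham, because 121 of 122, 152 of 153 and 223 of 223 genes past 0.05 and tested here (3 days, 14 days, neurons) had the opposite sign in the FPKM.

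FPKM of lines sharing an identifier were summed. limma 3.58.1 in R 4.3.3 (lmFit, eBayes with trend, two-sided) was fitted to log2(FPKM + 1) over all groups of a table, on genes at 1 FPKM or more in 4 libraries (3 for neurons), with Benjamini-Hochberg adjustment over all genes tested and a threshold of 0.05. This scale understates changes of low genes. The script was tested on simulated data. Alternatives were a pseudocount of 0.1, other filters, quantile normalization, fits on only the groups compared, a replicate block and leaving out each library. Full values are given for members called, those with the 5 largest differences each way per comparison, the 3 highest per subfamily and table, and a list of channels studied in sensory ganglia; a few other members were chosen after their values were seen. A few genes are counted but not reported here, by name or in the figures. The members and lists were chosen with earlier results of these data known. Gene positions are from GENCODE M21 (GRCm38) and upstream windows from RefSeq on GRCm38.p6. Figures were drawn with Matplotlib 3.10.9 in Python 3.11.15 with pandas 2.3.3.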

Additional observations from a re-analysis of the deposited data

Results flagged for a closer look

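In 23 of 313 groups of 4 libraries, 1 library's value lay far from the other 3; chance gives about 1 in 20 groups. In naive SGCs these were Kcnab2 at 6.26 FPKM, Kcnip1 at 0.323 and Kcnj12 at 1.36, all in replicate 2, and Kcns1 at 0.892 in replicate 1. In naive DRGs Kcnk13 stood at 1.57 FPKM in 1 library.

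In ligated SGCs at 3 days, replicate 1 held Kcnj13 at 19.3 FPKM with the others listed at 0, and Kcnn4 at 4.81 with the others at 16.6 to 17.9. Replicate 4 of that group held Kcnd3 at 1.43, Kcnip1 at 1.92 and Kcnk3 at 4.54 FPKM, each the highest. In sham SGCs at 3 days, Kcnip1 stood at 1.75 FPKM, Kcnk5 at 5.95 and Kcnmb2 at 3.39, each high in a different library.

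In opposite-side neurons, 1 library held Kcna2 at 13.6, Kcna6 at 68.5 and Kcnmb4 at 39.0 FPKM. Another held the antisense RNA Kcnab3os at 1.42 FPKM, with the others listed at 0. In ligated-side neurons, 1 library held Kcnc1 at 5.62, Kcng2 at 5.42 and Kcnn4 at 1.41 FPKM, and another held Kcnv1 at 7.81 FPKM.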

How the results depend on the processing

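FPKM gives no read depth, so members near 0 FPKM have an unknown precision. Quantile normalization moved the median naive difference of all genes from -0.12 to 0.16 and the split of genes called from 2184 higher and 3605 lower to 3701 and 2691. Members went from 6 and 32 to 8 and 28, Kcnn2 turned to 0.20, and Kcna6, Kcnk13 and Kcnn1 changed their call. Naive members called with 1 library left out ranged from 24 to 38, and all genes called from 3866 to 5825. Members called numbered 24 without DRG replicate 1, 24 without DRG replicate 2 and 25 without DRG replicate 3. There 31, 30 and 31 members were tested, since genes seen only in DRGs then miss the filter. An alternative chosen after seeing the data held the genes tested as with all libraries. Members called then ranged from 35 to 38, and all genes called from 4594 to 5909. The median naive difference of the members ranged from -2.12 to -1.03 with the filter applied again and from -2.08 to -1.91 with the tested genes held. At 14 days that median ranged from -0.12 to -0.0030. No filter on low values gave 6 higher and 50 lower of 90 naive members. The share of all genes called under that setting is not given here, so this count has no background. No surgery or neuron comparison called a member under any alternative.

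All-gene counts changed as follows. At 3 days, 9 became 1 without a filter, 4 with only the groups compared and 14 with a pseudocount of 0.1, and ranged from 1 to 6 with 1 library left out. At 14 days, 1 became 6 with only the groups compared, and ranged from 1 to 2 with 1 library left out. The effect at 14 minus 3 days ranged from 1 to 4, neurons of both sexes from 21 to 39, females from 7 to 17 and male minus female from 0 to 1. Male neurons went from 1 to 0 with only the groups compared, 0 with a pseudocount of 0.1 and 2 with quantile normalization, and ranged from 0 to 4. The sides went from 81 to 36 with only the groups compared.

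With 1 library left out, these uncalled differences changed sign within their range: naive Kcnn2 -0.35 to 0.17 (0.0022 without DRG replicate 1 and 0.12 without SGC replicate 3, with the filter applied again and with the tested genes held alike); at 3 days Kcna6 -0.047 to 0.33, Kcnj12 -0.051 to 0.74 and Kcnk2 -0.14 to 0.15; at 14 days Kcna6 -0.089 to 0.21, Kcnmb4 -0.023 to 0.40 and Kcnt1 -0.092 to 0.69. For 14 minus 3 days, Kcnip2 ranged from -0.90 to 0.20, and between sides Kcna2 from -0.34 to 0.19. In neurons of both sexes Kcnd1 ranged from -0.15 to 0.086, Kcnip2 from -0.21 to 0.024 and Kcnip4 from -0.075 to 0.047. In females Kcnh2 ranged from -0.035 to 0.67, Kcnj3 from -0.077 to 0.58 and Kcnu1 from -0.093 to 0.58.

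Deviations of libraries with the same replicate number had correlations of -0.08 to 0.19 across genes. Naive replicates 3 and 4 stood at 0.19 and 0.089, against at most 0.0089 and 0.0011 with libraries of other numbers. Replicate 1 at 14 days stood at 0.069 against at most 0.023. In every other case a library with a different number correlated more. With the replicate number as a block, 6 naive members were higher and 31 lower, with no share of all genes given beside them. All-gene counts with that block were 1 at 3 days, 0 at 14 days and 0 for 14 minus 3 days. No paired analysis was possible for neurons because their columns carry no replicate numbers.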
